A study of Mus musculus with 24 samples.

Results

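Mice given DEHP alone were compared with mice given the vehicle, by sequencing the small RNA of vesicles from the cauda epididymis. The comparison holds the 6 libraries labelled as DEHP at 2.5 mg/kg/day and the 6 labelled as vehicle control, out of 24 libraries in the series. All mice were C57BL/6J males aged 7 to 8 weeks when an osmotic pump was implanted. The pump delivered DEHP, di(2-ethylhexyl) phthalate, a plasticiser, or 50% DMSO, the solvent that the labels give as the vehicle, over 6 weeks. The remaining libraries came from mice given DBP alone (2.5 mg/kg/day, 6 libraries) or DBP and DEHP together (2.5 mg/kg/day of each, 6 libraries). They shared the estimate of the spread and formed the comparison of the mixture with DBP described last. Fluid was washed out of both cauda epididymides, sperm were pelleted at 500 × g, and RNA was taken from the vesicles left in suspension. The labels do not say which animal gave which library. The p-values therefore measure the spread between libraries, and whether each library came from a separate animal is not known.

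Epididymosomes are vesicles shed by the epithelium of the epididymis into the lumen, where they deliver protein and RNA to sperm that mature and are stored there. Fragments of tRNAs are a large part of their small RNA cargo, beside miRNAs, which repress messenger RNAs through a short 5′ stretch called the seed. DEHP is hydrolysed to a monoester that is known in rodents to activate the nuclear receptor PPARα and to lower testosterone synthesis in the testis. Because RNA of all vesicles in a sample was read together, fewer vesicles of a kind and less RNA per vesicle cannot be told apart.

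Reads on the 6 RNA classes named in the submitters' mapping order (miRNA, tRNA, piRNA, rRNA, circRNA and lncRNA) came to 7.94 to 12 M (1e6 reads) per DEHP library and 9.89 to 13.1 M per control library. A seventh table, otherRNA, held 0.306 to 0.493 M per DEHP library and 0.380 to 0.624 M per control library. Libraries 1 to 3 of each group were on sequencing lane 6 and libraries 4 to 6 on lane 7, so lane and treatment were balanced. Libraries 5 and 6 of both groups shared a profile that set them apart from most others. On the first principal component of log2 CPM, with 39.0% of the variance, they lay at 35.2 and 40.3 (DEHP) and at 42.2 and 41.7 (control). The other DEHP libraries lay between -31.5 and -4.71. Those of control lay between -30.6 and 11.9, with control replicate 2 at the upper end.

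Markers of other cells were scarce. Reads on 6 epithelial miRNAs (the miR-200 family and miR-205) summed to 3 to 27 per DEHP library and 4 to 16 per control library, too few for any member to be tested, so the epithelial origin of the vesicles could not be checked against them. Testis germ cell miRNAs summed to 2 to 12 reads per DEHP library and 2 to 16 per control library over 9 members. Leukocyte miRNAs gave 3 to 13 reads in DEHP and 1 to 11 in control, with 1 of 5 members at 0 in all 12 libraries. Erythrocyte miRNAs gave 0 to 1 reads in DEHP and 0 to 2 in control, with 2 of 3 members at 0 throughout, and liver miR-122-5p gave 0 to 5 in DEHP and 0 to 1 in control. Muscle miRNAs were the most read of these lists, with 71 to 390 reads in DEHP libraries and 134 to 361 in control libraries, mostly of miR-143 and miR-145a.

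The DEHP and control libraries overlapped in their share of reads for all 7 classes. The tRNA class made up 37.5% ± 3.80 of the 6-class reads in DEHP libraries and 33.7% ± 5.64 in control libraries (SD, n = 6 each), a difference of 3.83 percentage points with a 95% interval of -2.87 to 9.87. In DEHP libraries 1 to 6 the tRNA share was 40.1, 37.2, 42.1, 39.3, 34.5 and 31.8%, against 38.1, 28.4, 34.5, 42.2, 30.5 and 28.3% in control libraries 1 to 6. The ranges overlapped almost wholly, and in both groups libraries 5 and 6 were among the lowest 3. The exact two-sided permutation test with labels exchanged within lane gave p = 0.205 for this share. The piRNA class, named for small RNAs that hold transposons silent in the germ line, made up 47.4% ± 3.07 in DEHP and 49.9% ± 4.85 in control libraries, a difference of -2.49 points (interval -7.54 to 3.02). For miRNA the shares were 5.67% ± 0.335 in DEHP and 5.84% ± 0.702 in control, for circRNA 4.30% ± 0.676 and 4.64% ± 0.734, and for lncRNA 0.823% ± 0.124 and 0.847% ± 0.171, DEHP first in each pair. Per read of the 6 classes, otherRNA reads came to 3.75% ± 0.591 in DEHP and 3.85% ± 0.626 in control libraries, a difference of -0.0964 points (interval -0.745 to 0.583).

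**Figure D1:**
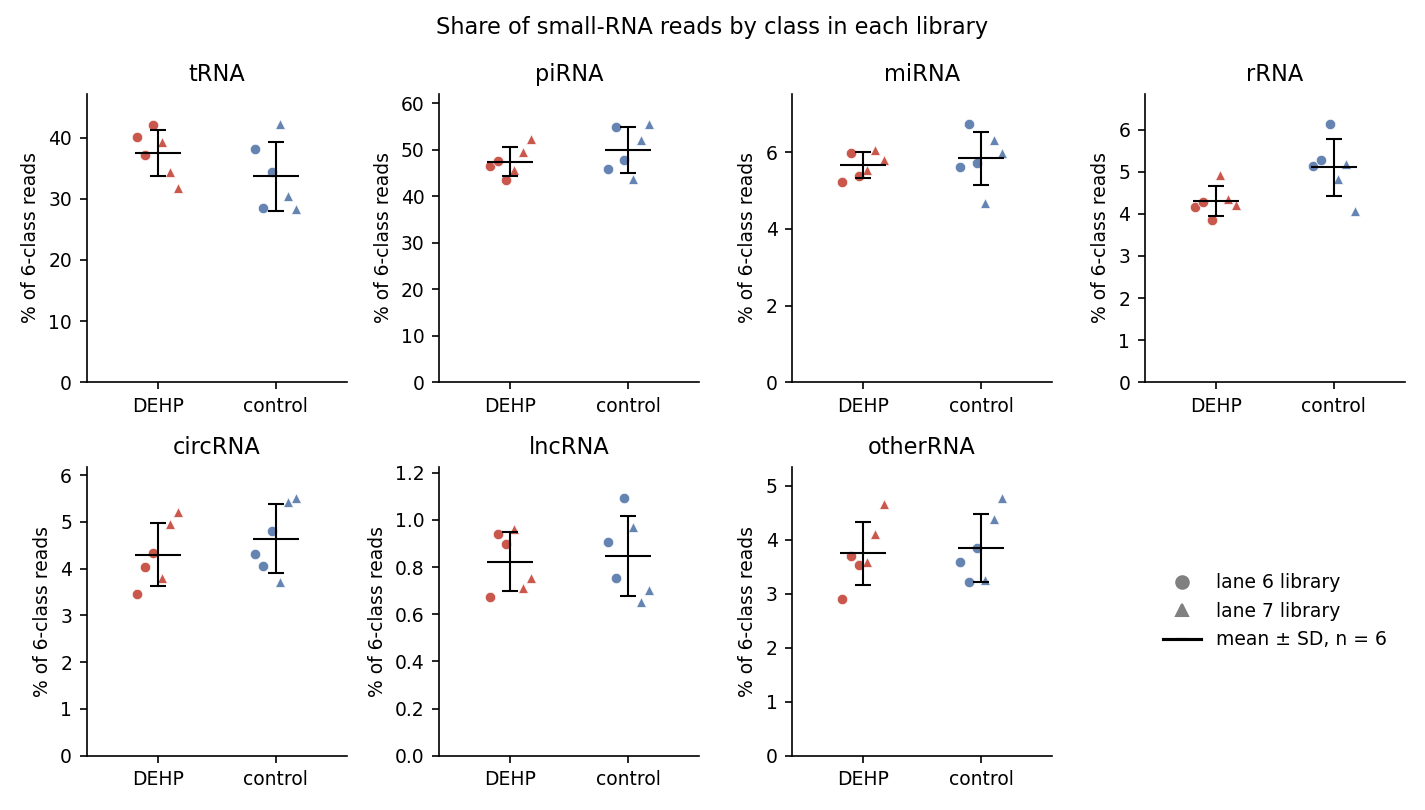
Percent of 6-class reads on each RNA class in the 6 DEHP and the 6 control libraries, with otherRNA given per read of the 6 classes. Points are libraries (circles lane 6, triangles lane 7) and bars are the mean ± SD. The groups overlap in every class, and rRNA has the clearest offset, with DEHP at 3.86 to 4.93% and control at 4.06 to 6.13%.

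Ribosomal RNA, the structural RNA of ribosomes, had the smallest p of the class shares. It made up 4.17, 4.29, 3.86, 4.93, 4.36 and 4.22% of 6-class reads in DEHP libraries 1 to 6, against 5.15, 5.28, 6.13, 4.82, 5.19 and 4.06% in control libraries 1 to 6. All DEHP libraries lay below the control mean, yet the ranges overlapped. Control replicate 6 was the second lowest of the 12, and control replicate 4 lay below DEHP replicate 4. The difference was -0.803 points (interval -1.48 to -0.0592), with an exact permutation p of 0.045 that came to 0.27 once adjusted over the 6 classes. It measured -1.42 points on lane 6 and -0.188 points on lane 7. One reference of 1849 bases, ENSMUST00000198477.2, which was not matched in GENCODE M21, took 97.2% of rRNA reads in DEHP and 96.8% in control libraries. With the most read feature of each class left out, the difference in the rRNA share was -0.0325 points. That value rests on the small remainder of rRNA reads, so its small size in points followed from the removal. The log2 fold change of ENSMUST00000198477.2 was -0.30 (SE 0.281).

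No single RNA passed the adjusted threshold. Of 7454 features of the 6 classes, 0 (0.0%) had an adjusted p under 0.05 in edgeR's quasi-likelihood test, and the smallest adjusted p was 0.999. DESeq2 called 0 as well. An unadjusted p under 0.05 was reached by 218 features (2.92%) in edgeR and by 203 in DESeq2. The labels name a fold change of at least 1.5 with p under 0.01 as the study's criterion, and 29 features (0.389%) met it with unadjusted p, 14 of them higher (0.188%) and 15 lower (0.201%) in DEHP libraries. With library totals in place of TMM scaling it was met by 14 higher and 5 lower. With libraries 1 to 4 of each group alone 31 features met it, of which 6 were among the 29. For otherRNA, edgeR called 0 of 3732 features (0.0%), with a smallest adjusted p of 0.999, while 102 (2.73%) had an unadjusted p under 0.05. DESeq2 called 0 there too, with 87 at an unadjusted p under 0.05. The criterion was met by 14 otherRNA features (0.375%), 7 higher (0.188%) and 7 lower (0.188%), or by 8 higher and 4 lower with library totals, and by 14 with libraries 1 to 4 alone, of which 4 were among the main 14. Every feature described below has an adjusted p of 0.999 or more, and fold changes are given with their SE or 95% interval (called the interval below). Where levels are given in CPM, these are reads per 1e6 reads of the 6 classes, or of otherRNA for otherRNA features, after scaling of the library totals.

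**Figure D2:**
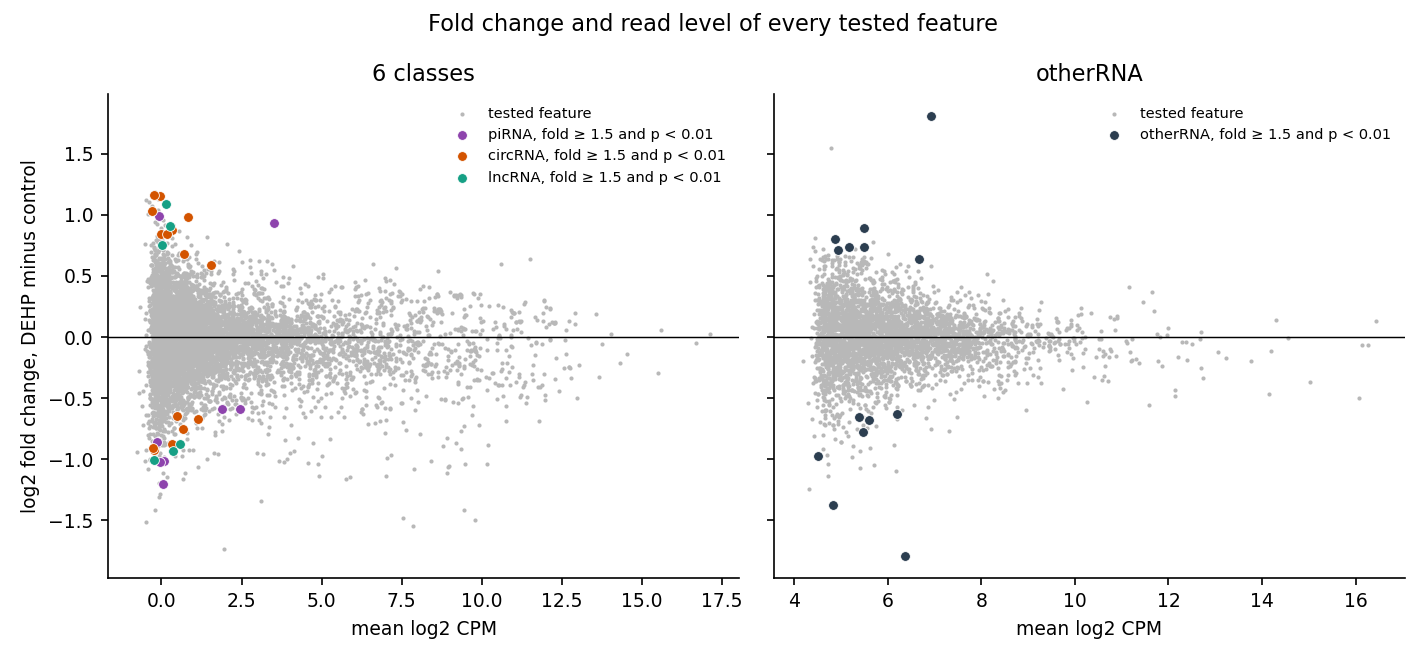
Log2 fold change of DEHP minus control against mean log2 CPM for each tested feature, 7454 in the 6 classes (left) and 3732 in otherRNA (right). Coloured points met a fold change of at least 1.5 with unadjusted p under 0.01, 29 on the left and 14 on the right, and most of those on the left sit at the low end of the read range.

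Spread over all features, the fold changes centred near 0. The median log2 fold change was -0.02 over the 6 classes and 0.0031 in otherRNA. By class it was -0.01 for 246 miRNA entries, -0.06 for 26 rRNAs, -0.0032 for 3564 circRNAs and 0.0044 for 1208 lncRNAs. Transfer RNAs stood at a median of 0.17 with 269 of 340 higher in DEHP libraries (79.1%), and piRNAs at -0.13 with 684 of 2070 higher (33.0%). With each class scaled on its own the tRNA direction turned, to 41.2% higher and a median of -0.06, and 45.8% of piRNAs were higher in DEHP libraries. The miRNA share higher was 47.6%, and ran from 34.6% with each class scaled on its own to 58.1% with library totals. On lane 7 alone 49.6% of tRNAs were higher, against 91.5% on lane 6 alone. Leaving out 1 library at a time, the tRNA median was lowest at 0.11 (control replicate 1 left out) and highest at 0.32 (control replicate 4 left out). That of piRNAs lay between -0.18 (control replicate 4 left out) and -0.03 (control replicate 2 left out), and 45.3% of piRNAs were higher without control replicate 2.

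Among miRNAs, no entry met the fold and p criterion, and 4 of 246 had an unadjusted p under 0.05, 1 higher and 3 lower in DEHP libraries. Most miRNA reads lay on a few hairpin entries. Mature entries held 8.63 to 19.6% of miRNA reads in DEHP libraries and 7.09 to 16.7% in control libraries. The hairpin mir-1961 took 11.8% of miRNA reads in DEHP and 13.6% in control libraries, mir-1928 12.2% and 11.1%, and mir-3535 11.4% and 10.9%, DEHP first. None of the 12 libraries had a read on the mature entries of mir-1961 or mir-1928. The hairpins of these most read entries are shown with the annotated mature stretch in capitals, from RefSeq on GRCm38.p6, at chr5:92788451-92788562 on the minus strand for Mir1961 and at chr1:74206554-74206620 on the minus strand for Mir1928.
Mir1961: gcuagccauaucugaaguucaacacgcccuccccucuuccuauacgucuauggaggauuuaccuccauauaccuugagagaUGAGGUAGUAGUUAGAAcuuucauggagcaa
Mir1928: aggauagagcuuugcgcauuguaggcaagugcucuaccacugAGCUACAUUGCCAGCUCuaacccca
In mir-1961 the mature stretch covers bases 82 to 98 and its seed, GAGGUAG, is that of let-7, while in mir-1928 it covers bases 43 to 59.

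Levels of these abundant hairpins overlapped between the groups. The mir-1961 hairpin had 2873 CPM at the lowest, 6866 at the median and 8277 at the highest in DEHP libraries, against 4619, 7482 and 13270 CPM in control libraries. Its log2 fold change was -0.26 (interval -0.85 to 0.33). For mir-1928 the log2 fold change was 0.06 (interval -0.58 to 0.69) and for mir-3535 it was -0.03 (interval -0.58 to 0.52).

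The entries with the smallest p in each direction were rare. Hairpin mir-467d, a member of a rodent cluster within the Sfmbt2 gene, ran from 0.389 through a median of 0.598 to 1.06 CPM in DEHP libraries, against 0.382, 1.32 and 2.27 CPM in control libraries. Each of the 6 DEHP libraries lay below the control mean but the ranges overlapped, and the log2 fold change was -0.97 (SE 0.392). Mature miR-125a-5p, a relative of the lin-4 miRNA of worms, ran from 0.192 through 0.551 to 2.33 CPM in DEHP libraries, against 0.0593, 0.341 and 1.14 CPM in control libraries. Only 4 of 6 DEHP libraries lay above the control mean, with DEHP replicates 1 and 2 on lane 6 far above the rest. Fitted, the log2 fold change was 1.13 (SE 0.531, interval 0.04 to 2.23) over both lanes and 2.01 on lane 6, and it had too few reads to be tested on lane 7 alone.

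The list of miR-10 and its relatives (the miR-99, miR-100 and miR-125 entries) had 6 of 23 members tested. Of these, 5 were higher and 1 lower in DEHP libraries, with a median log2 fold change of 0.57 beside -0.01 over all miRNA entries. The 1 with an unadjusted p under 0.05, beside 1.63% of all miRNA entries, was miR-125a-5p, described above. All 23 members together had 63 to 122 reads per DEHP library and 54 to 123 per control library. With each library left out in turn 5 of 6 were higher. With DEHP and control libraries only it was 2 of 3, and without a filter on low counts 14 of 22 (median 0.37). The 2 mature members of miR-125 share their seed, printed in capitals (bases 2 to 8, RefSeq, GRCm38.p6), the stretch that pairs with targets. They lie at chr17:17830817-17830840 (miR-125a-5p) and chr9:41581940-41581961 (miR-125b-5p), both on the plus strand, and the let-7c sequence at chr15:85706616-85706637 (plus strand) follows for comparison with the mir-1961 stretch above.
mmu-miR-125a-5p: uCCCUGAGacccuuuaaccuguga
mmu-miR-125b-5p: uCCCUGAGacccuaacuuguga
mmu-let-7c-5p: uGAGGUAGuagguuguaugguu
For miR-125b-5p the log2 fold change was 0.56 (interval -0.24 to 1.36). The mir-10a hairpin was the lower member, at -0.50 (interval -1.10 to 0.11), with -1.30 on lane 6 and 0.05 on lane 7.

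Let-7, a family that restrains growth programmes and is abundant in many epithelia, had 13 of 34 entries tested. Of these 11 were higher and 2 lower in DEHP libraries, with a median log2 fold change of 0.29, and 0 had an unadjusted p under 0.05. Summed let-7 reads came to 31.2 ± 6.59 RPM (reads per 1e6 6-class reads) in DEHP and 25.8 ± 4.79 RPM in control libraries (SD, n = 6 each). The hairpin let-7c-2 ran from 1.54 through 3.53 to 4.95 CPM in DEHP libraries, against 1.47, 2.29 and 3.05 CPM in control libraries, with overlap. Its log2 fold change was 0.58 (SE 0.307, interval -0.05 to 1.21). With each class scaled on its own, 9 of the 13 entries were higher, and without DEHP replicate 4 the median was 0.03 with 8 of 14 higher. Entries of a family share reads in a way the sources used here do not give, so these counts are not separate measurements.

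The miR-143 and miR-145 cluster, typical of smooth muscle, had 4 of 8 entries tested, all higher in DEHP libraries, with a median log2 fold change of 0.37 and 0 at an unadjusted p under 0.05. With each class scaled on its own 3 of 4 were higher, on lane 6 alone 1 of 4, and without DEHP replicate 2 it was 2 of 4 with a median of 0.13. Mature miR-143-3p ran from 2.42 through 5.62 to 15.7 CPM in DEHP libraries, against 1.54, 5.27 and 6.11 CPM in control libraries, and its log2 fold change was 0.71 (interval -0.17 to 1.58). For mature miR-145a-5p the log2 fold change was 0.26 (interval -0.78 to 1.29), and -0.21 without DEHP replicate 2. These 2 mature miRNAs are also the tested members of the muscle list, and the part of muscle RNA in their values was not tested. No entry of the miR-200 (15 entries), miR-34 and miR-449 (17) or miR-30 (19) lists had enough reads to be tested. Summed miR-200 reads came to 3.12 ± 1.36 RPM in DEHP and 2.48 ± 1.16 RPM in control libraries.

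Transfer RNAs carry amino acids to the ribosome, and their fragments are the small RNAs most often discussed as vesicle cargo for sperm. Summed by amino acid, 21 of 22 isotypes were higher in DEHP libraries per 1e6 6-class reads, with a median log2 difference of 0.23. By exact permutation within lane, 4 of the 22 had an unadjusted p under 0.05 and the smallest adjusted p was 0.248. That count was 1 without DEHP replicate 1 or 6 or control replicate 1 or 2, 2 without DEHP replicate 2, 3 or 5 or control replicate 3, and 7 without DEHP replicate 4. With libraries 1 to 4 alone 16 of 22 were higher. Scaled per 1e6 tRNA reads, 15 of 22 were higher, the median log2 difference was 0.07 and 0 had an unadjusted p under 0.05. The isotypes with an unadjusted p under 0.05 were Glu, Asn, Ile and Thr. Glycine was the only lower isotype, at 24741 ± 10770 RPM in DEHP and 25670 ± 7855 RPM in control libraries, a log2 difference of -0.11 (interval -0.78 to 0.49).

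Asparagine tRNA reads came to 816, 601, 729, 679, 621 and 592 RPM in DEHP libraries 1 to 6, against 513, 429, 450, 651, 658 and 431 RPM in control libraries 1 to 6. All DEHP libraries lay above the control mean, and control replicates 4 and 5 lay within the DEHP range. The log2 difference was 0.38 (interval 0.05 to 0.72, exact permutation p = 0.04), and it was 0.62 on lane 6 and 0.14 on lane 7. Threonine tRNA reads averaged 4957 ± 929.7 RPM in DEHP and 3813 ± 684.2 RPM in control libraries (log2 difference 0.37, interval 0.02 to 0.73, exact permutation p = 0.045). Isoleucine tRNA reads, the rarest of the 4, averaged 155 ± 37.3 RPM in DEHP and 124 ± 35.9 RPM in control libraries (log2 difference 0.35, interval 0.05 to 0.66, exact permutation p = 0.035).

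Glutamate tRNA, whose 5′ fragment is among the main tRNA fragments of mouse sperm, averaged 59779 ± 8926 RPM in DEHP and 52842 ± 8032 RPM in control libraries. Both anticodons of this isotype overlapped between the groups. The log2 difference was 0.18 (interval 0.03 to 0.33) with an exact permutation p of 0.03, and per 1e6 tRNA reads it was 0.01. Arginine tRNA was the most read isotype, at 176506 ± 38168 RPM in DEHP and 160635 ± 43004 RPM in control libraries, a log2 difference of 0.15 (interval -0.32 to 0.59). Cysteine tRNA had the highest log2 difference of all isotypes, 0.43, with an interval of -0.38 to 0.95, and serine tRNA followed with 0.39 (interval -0.06 to 0.85).

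**Figure D3:**
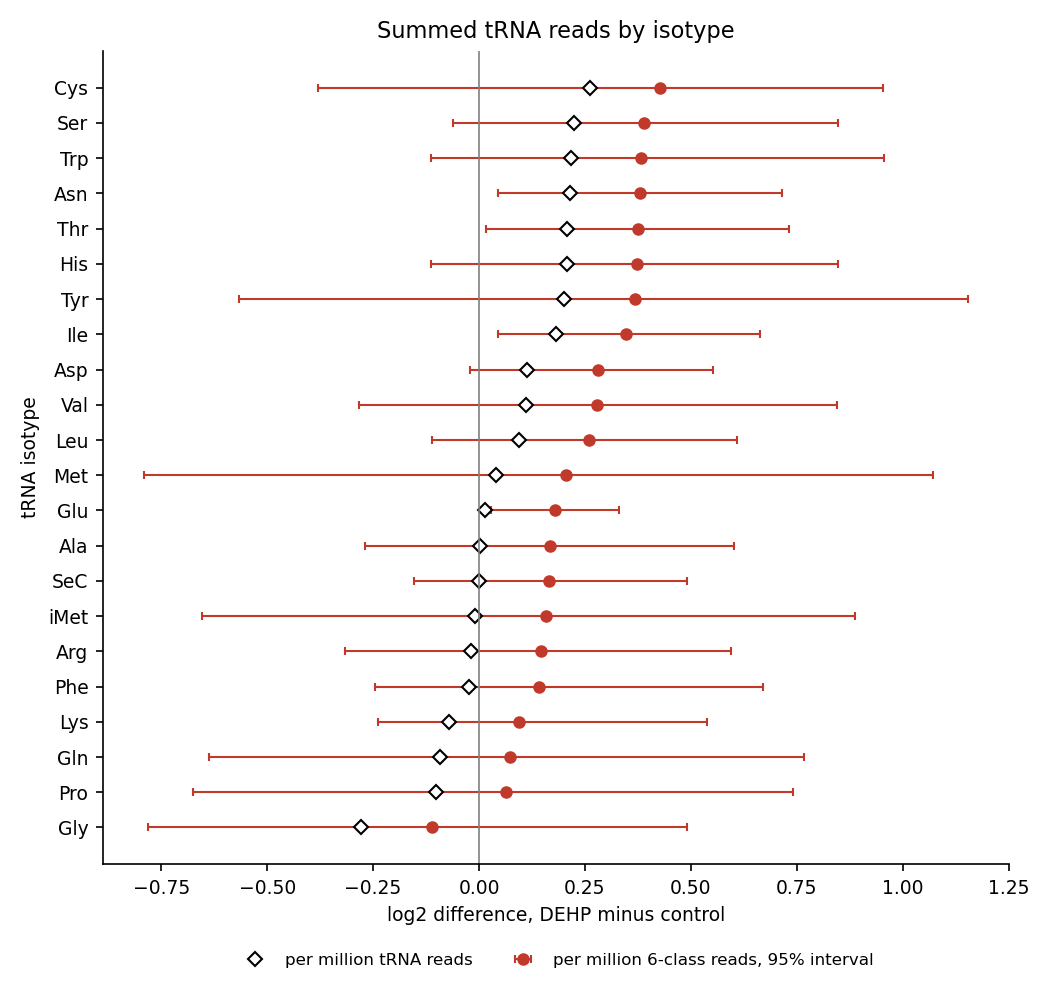
Log2 difference of DEHP minus control in summed tRNA reads for the 22 isotypes, per 1e6 6-class reads (filled circles, bars are the 95% interval of the exact permutation test within lane) and per 1e6 tRNA reads (open diamonds). The circles lie right of 0 in 21 isotypes and the diamonds in 15, and the intervals of Asn, Thr, Ile and Glu exclude 0 on the first scale.

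Sums by anticodon were added after the isotypes had been seen. Of 48 anticodons, 43 were higher in DEHP libraries per 1e6 6-class reads and 10 had an unadjusted p under 0.05, all of them higher, with a smallest adjusted p of 0.213. Leaving out 1 library at a time gave 4 (without control replicate 6) to 10. Leu-AAG came to 626, 697, 595, 738, 719 and 929 RPM in DEHP libraries 1 to 6, against 500.1, 438, 485, 526, 615 and 634 RPM in control libraries 1 to 6. Within each lane all DEHP libraries lay above all control libraries, while across lanes DEHP replicates 1 and 3 lay below the highest control library. The log2 difference was 0.43 (interval 0.25 to 0.61), with 0.43 on lane 6 and 0.42 on lane 7, and the exact permutation p of 0.005 is the smallest that 400 arrangements can give. Scaled per 1e6 tRNA reads, the log2 difference was 0.26 (exact permutation p = 0.15). Thr-AGT averaged 2204 ± 202 RPM in DEHP and 1724 ± 194 RPM in control libraries, a log2 difference of 0.36 (interval 0.17 to 0.58, exact permutation p = 0.01), and of 0.19 per 1e6 tRNA reads.

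Single tRNA entries gave the same picture, though copies of a tRNA share reads and are not independent. Of 340 tested, 9 had an unadjusted p under 0.05 (2.65%), all higher in DEHP libraries, and 0 met the criterion. The entry with the smallest p was tRNA-Thr-TGT-1-1, which ran from 9.71 through 10.2 to 12.6 CPM in DEHP libraries, against 5.33, 7.17 and 9.87 CPM in control libraries. The 6 DEHP libraries all lay above the control mean and the ranges overlapped slightly. The fitted log2 fold change was 0.52 (SE 0.189), with 0.81 on lane 6 and 0.23 on lane 7. The most read entry was tRNA-Arg-CCG-3-1, with 38.5% of the class in DEHP and 38.8% in control libraries, and its log2 fold change was 0.02 (SE 0.357, interval -0.71 to 0.76). For tRNA-Pro-TGG-1-1 it was -0.22 (interval -1.05 to 0.62) and for tRNA-Arg-TCG-1-1 0.20 (interval -0.39 to 0.79).

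Of the tRNAs known for abundant 5′ fragments in sperm, 78 of 85 entries were tested. Of these, 61 were higher in DEHP libraries, with a median log2 fold change of 0.12 beside 0.17 over all tRNAs. An unadjusted p under 0.05 was reached by 1 of the 78, beside 2.65% of all tRNAs. Their summed reads came to 115700 ± 9067 RPM in DEHP and 102900 ± 7862 RPM in control libraries. With each class scaled on its own 18 of 78 were higher, and on lane 7 alone 38 of 77, so the direction of the list depended on scaling and lane. Its median was 0.04 without DEHP replicate 4 and 0.25 without control replicate 4. Its 2 most read members were tRNA-Glu-CTC-1-9, with a log2 fold change of 0.10 (interval -0.45 to 0.66), and tRNA-Gly-CCC-1-2, with -0.24 (interval -0.76 to 0.27).

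Mitochondrial tRNAs, which serve translation inside mitochondria, were in the otherRNA table. Of 22, 10 were tested, and 9 of those were lower in DEHP libraries, with a median log2 fold change of -0.33. Without a filter on low counts, 10 of 22 were higher and the median was -0.11. Leaving out 1 library at a time moved the median between -0.69 (without DEHP replicate 5) and -0.11 (without control replicate 5, with 4 of 10 higher). An unadjusted p under 0.05 was reached by 2 of the 10, beside 2.73% of all otherRNA features, namely mt-Tn (log2 fold change -1.05, SE 0.467) and mt-Tq (-0.77, SE 0.348). The most read, mt-Tp, ran from 238 through 704 to 4336 CPM in DEHP libraries, against 482, 971 and 4374 CPM in control libraries. Its interval was wide, at -1.42 to 0.72 around -0.35. Summed mitochondrial tRNA reads per 1e6 otherRNA reads were 4562 and 6110 in DEHP replicates 5 and 6 and 5912 and 5766 in control replicates 5 and 6, above the other 4 libraries of each group. The log2 difference of these sums, DEHP minus control, was -0.23 (interval -1.61 to 1.20, exact permutation p = 0.625). The mitochondrial rRNAs mt-Rnr1 and mt-Rnr2 had log2 fold changes of -0.35 (interval -1.59 to 0.89) and -0.30 (interval -1.52 to 0.92). Both were higher in DEHP libraries without control replicate 2 (median 0.26), and their median was -0.99 without DEHP replicate 2. Of the remaining rRNAs, n-R5s151, a 5S rRNA copy on chromosome 7, had the smallest p of the class (log2 fold change 1.03, SE 0.484), at a median of 1.02 CPM in DEHP and 0.319 CPM in control libraries.

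Of 2070 piRNAs, 8 met the criterion, beside 0.389% of all features of the 6 classes. They were 2 higher and 6 lower in DEHP libraries, where 33.0% of all tested piRNAs were higher. The highest by p was piR-mmu-23561793, which ran from 10.9 through 12.4 to 17.7 CPM in DEHP libraries, against 4.75, 6.89 and 11.9 CPM in control libraries. All DEHP libraries lay above the control mean, and the ranges overlapped at 1 control library. Its log2 fold change was 0.94 (SE 0.286, interval 0.35 to 1.53), with 0.96 on lane 6 and 0.90 on lane 7. The second, piR-mmu-73346, was far rarer, at a median of 0.950 CPM in DEHP and 0.426 CPM in control libraries (log2 fold change 0.99, SE 0.333).

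The lower piRNA with the smallest p, piR-mmu-6644755, ran from 0.373 through 0.483 to 0.964 CPM in DEHP libraries, against 0.572, 1.14 and 2.72 CPM in control libraries. Each DEHP library lay below the control mean, and 3 control libraries lay within the DEHP range. Its fold change on the log2 scale was -1.20 (SE 0.367, interval -1.96 to -0.44), and with libraries 1 to 4 alone it was -0.78. For piR-mmu-2004057, at a median of 4.26 CPM in DEHP and 6.66 CPM in control libraries, it was -0.59 (SE 0.191). For piR-mmu-8080339 it was -0.86 (SE 0.287). The most read piRNAs overlapped between the groups. The first, piR-mmu-30344366, with 19.6% of piRNA reads in DEHP and 17.6% in control libraries, had a log2 fold change of -0.05 (interval -0.82 to 0.73). For piR-mmu-5890133 (12.6% in DEHP, 11.4% in control) it was 0.06 (interval -0.87 to 0.99) and for piR-mmu-398716 (4.98% in DEHP, 5.00% in control) -0.14 (interval -0.81 to 0.53).

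Circular RNAs are closed loops spliced from exons of a host gene. Of 3564 tested, 15 met the criterion, beside 0.389% of all features of the 6 classes. These were 9 higher and 6 lower in DEHP libraries, with 82 to 347 reads each over the 12 libraries. The circRNA of Dennd2a, whose protein activates a Rab GTPase of vesicle traffic, had the smallest p of the 6 classes. It ran from 0.816 through 1.24 to 1.67 CPM in DEHP libraries, against 0.221, 0.472 and 0.919 CPM in control libraries, from 121 reads in all and 3 to 20 per library. Every DEHP library lay above the control mean, and 1 control library lay within the DEHP range. Its log2 fold change was 1.15 (SE 0.284, interval 0.57 to 1.74), with 1.14 on each lane.

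Among the circRNAs lower in DEHP libraries, that of Zfp207, whose protein acts in spindle assembly, had the smallest p. It ran from 1.27 through 1.40 to 1.83 CPM in DEHP libraries, against 1.84, 2.28 and 3.21 CPM in control libraries, from 275 reads in all. The groups did not overlap. The log2 fold change came to -0.67 (SE 0.176, interval -1.04 to -0.31), with -0.72 on lane 6 and -0.65 on lane 7. Over the 6 classes, 8 features of 7454 had groups that did not overlap (0.107%), 6 with DEHP above control and 2 below. Of these, the circRNAs of Mast4, a microtubule-associated kinase, and Pcm1, a protein of centriolar satellites, also met the criterion and were higher in DEHP libraries.

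Other circRNAs past the criterion came from genes of varied function. That of Clasp1, a protein of microtubule plus ends, ran from 0.636 through 0.982 to 1.26 CPM in DEHP libraries, against 1.19, 1.74 and 2.09 CPM in control libraries (log2 fold change -0.75, SE 0.217). That of Zfp536, a zinc finger repressor, had a log2 fold change of 0.88 (SE 0.267), that of Gm15492 0.59 (SE 0.186) and that of Dgcr2, a membrane adhesion receptor, -0.65 (SE 0.199). The circRNA of Etfb, a subunit of the flavoprotein that takes electrons from mitochondrial fatty acid oxidation, averaged 0.770 ± 0.174 CPM in DEHP and 1.41 ± 0.297 CPM in control libraries. It was chosen after its values had been seen.

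Rxra encodes the retinoid X receptor alpha, the partner with which PPARα binds DNA. Its circRNA was the tested member of 4 circRNAs of nuclear receptor and peroxisomal genes, and it was much better read than those above. It ran from 52.4 through 109 to 167 CPM in DEHP libraries, against 116, 143 and 261 CPM in control libraries. All DEHP libraries lay below the control mean, with overlap. Its log2 fold change was -0.58 (SE 0.278, interval -1.15 to -0.0029), with -0.62 on lane 6 and -0.53 on lane 7. It met neither the fold nor the p part of the criterion. The most read circRNAs were those of 2610528E23Rik, with 10.7% of circRNA reads in DEHP and 12.1% in control libraries and a log2 fold change of -0.35 (interval -0.91 to 0.22), and of Maz, with 8.43% in DEHP and 10.2% in control libraries and -0.52 (interval -1.37 to 0.33).

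Of 1208 lncRNAs, 6 met the criterion (beside 0.389% of all features of the 6 classes), 3 higher and 3 lower in DEHP libraries. The lincRNA 4930570E03Rik (chr16:78695034-78709083, GENCODE M21 on GRCm38) ran from 0.741 through 1.23 to 1.55 CPM in DEHP libraries, against 0.157, 0.527 and 0.919 CPM in control libraries. The 6 DEHP libraries all lay above the control mean, and 2 control libraries reached into the DEHP range. On the log2 scale the fold change was 1.09 (SE 0.326, interval 0.42 to 1.76), with 1.18 on lane 6 and 0.99 on lane 7. Gm15907 and Gm4425 were the other higher ones (log2 fold changes 0.75 and 0.91), and the value of Gm4425 was 1.74 on lane 6 and 0.0085 on lane 7. Lower in DEHP libraries were 4930556L07Rik (-0.87, SE 0.277), Gm1627 (-0.94, SE 0.313) and A530076I17Rik (-1.01, SE 0.349).

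The most read entries of the nuclear and imprinted lncRNA lists had intervals that include 0. Malat1, a nuclear speckle RNA, ran from 115 through 139 to 178 CPM in DEHP libraries, against 95.6, 141 and 186 CPM in control libraries, with a log2 fold change of 0.02 (SE 0.161, interval -0.31 to 0.35). For Neat1, the scaffold of paraspeckles, it was -0.03 (interval -0.57 to 0.51). The imprinted antisense RNA Kcnq1ot1 ran from 3151 through 3715 to 3982 CPM in DEHP libraries, against 3061, 3641 and 4247 CPM in control libraries, and its interval was -0.32 to 0.32. For the imprinted lncRNA Meg3 the log2 fold change was 0.19 (interval -0.22 to 0.59). Over the list of imprinted lncRNAs, 19 of 57 entries were tested, 8 were higher (15 of 20 on lane 7 alone, 14 of 19 without control replicate 2) and 0 had an unadjusted p under 0.05. With each class scaled on its own, a setting that leaves out otherRNA entries, 2 of 10 were higher and the median log2 fold change was -0.40. Among lncRNAs, AC121821.1 was the most read, with 25.0% of the class in DEHP and 27.3% in control libraries, and its log2 fold change was -0.30 (interval -1.46 to 0.86), with -0.93 without DEHP replicate 4 and 0.48 without control replicate 4.

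Summed by biotype, otherRNA held mainly antisense transcripts and miscellaneous RNAs such as 7SL. Antisense transcripts took 467566 ± 87782 RPM of otherRNA reads in DEHP and 457067 ± 70486 RPM in control libraries, a log2 difference of 0.03 (interval -0.27 to 0.35). Miscellaneous RNAs took 230527 ± 55855 RPM in DEHP and 223937 ± 33819 RPM in control libraries (log2 difference 0.02). Of 18 biotypes, 12 were higher in DEHP libraries, and by exact permutation 0 had an unadjusted p under 0.05. Leaving out 1 library at a time, 5 to 13 were higher, and 1 had such a p without control replicate 2 and without control replicate 4. Entries with no match in GENCODE M21 had the smallest p, with 67912 ± 20736 RPM in DEHP and 85639 ± 19909 RPM in control libraries (log2 difference -0.35, interval -0.73 to 0.04, exact permutation p = 0.075). Small nucleolar RNAs took 38906 ± 14951 RPM in DEHP and 37752 ± 13930 RPM in control libraries, and small nuclear RNAs 16607 ± 2638 RPM in DEHP and 16644 ± 1870 RPM in control libraries.

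The otherRNA feature with the smallest p was Gm22073, annotated as a small nuclear RNA of 189 bases at chr3:68547520-68547708 on the minus strand, opposite to Schip1 and outside its exons in GENCODE M21. In DEHP libraries 1 to 6 it had 569, 202, 123, 176, 379 and 29.2 CPM, against a lowest of 33.2, a median of 53.5 and a highest of 127 CPM in the control libraries. DEHP replicate 6 was the lowest of all 12 libraries and the other 5 lay above the control mean. Its log2 fold change was 1.81 (SE 0.439, interval 0.91 to 2.71), with 1.65 on lane 6 and 1.96 on lane 7, from 779 reads and 11 to 184 per library. It resembles U2, the spliceosomal RNA that pairs with the branch point of introns. In a global alignment with Rnu2-10, a U2 gene of 191 bases at chr11:101658238-101658428 on the plus strand, 137 of 195 columns were identical (70.3%). The sequences are printed from GENCODE M21 to show where they are alike, with the bases identical in that alignment in capitals. Whether any read matched both was not tested.
Gm22073: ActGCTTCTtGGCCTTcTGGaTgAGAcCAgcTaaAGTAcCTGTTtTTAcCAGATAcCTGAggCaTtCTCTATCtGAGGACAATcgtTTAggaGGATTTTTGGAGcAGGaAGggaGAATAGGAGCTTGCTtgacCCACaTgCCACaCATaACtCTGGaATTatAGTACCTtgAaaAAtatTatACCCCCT
Rnu2-10: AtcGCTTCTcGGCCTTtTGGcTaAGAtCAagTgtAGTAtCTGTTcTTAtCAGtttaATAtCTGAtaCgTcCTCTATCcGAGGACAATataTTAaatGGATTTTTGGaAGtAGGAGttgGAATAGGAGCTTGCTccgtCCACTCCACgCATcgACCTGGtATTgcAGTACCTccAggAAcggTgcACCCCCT
The sources used here do not give how reads with several matches were assigned, so values of U2-like entries are uncertain.

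**Figure D4:**
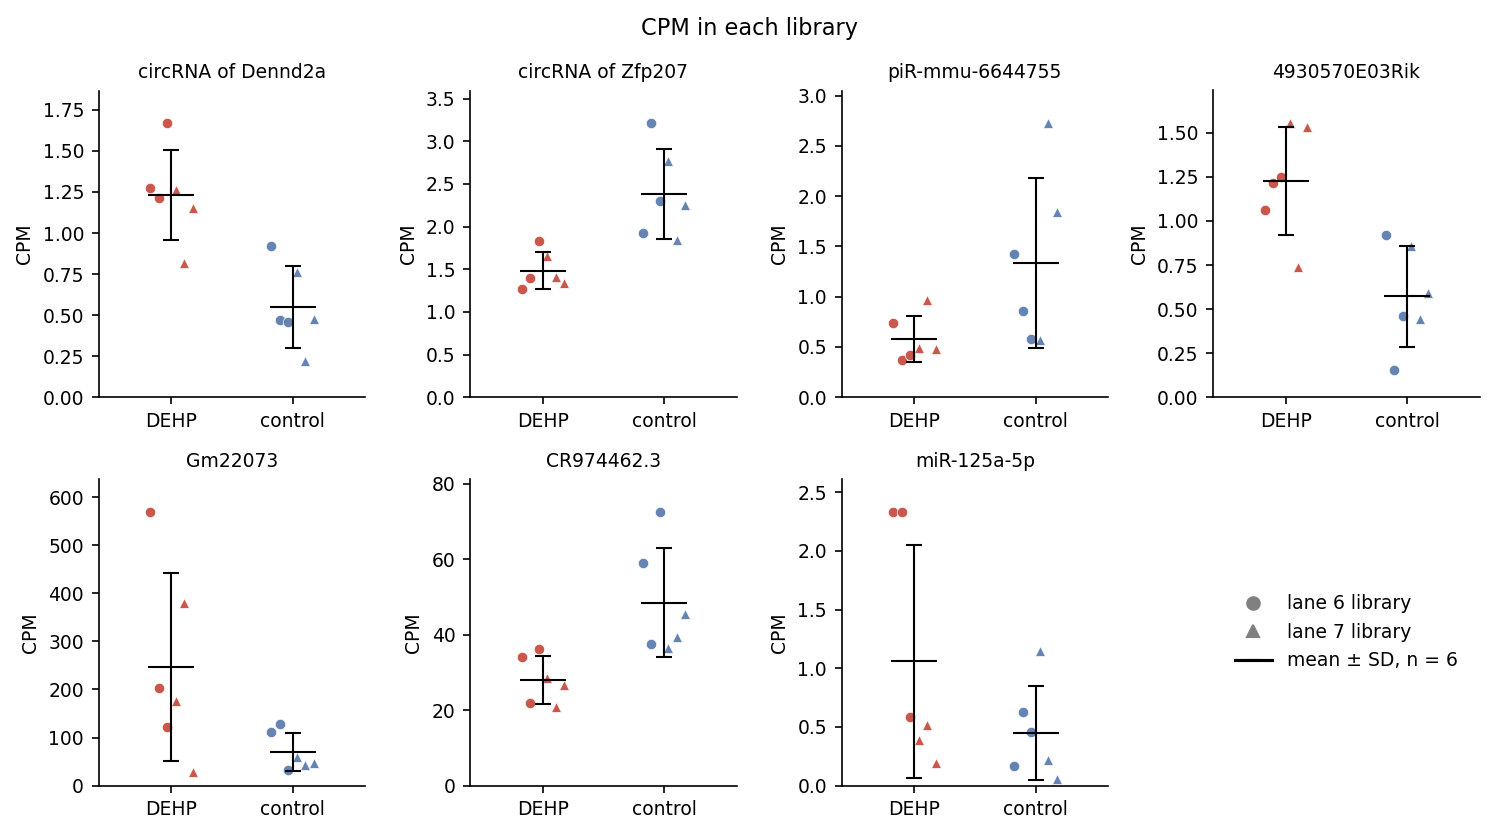
CPM in each library of 7 features described in the text, for the 6 DEHP and the 6 control libraries (circles lane 6, triangles lane 7, bars mean ± SD, n = 6). The groups are apart for the circRNA of Zfp207 and for CR974462.3, and DEHP libraries range from 29.2 to 569 CPM for Gm22073.

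Of the 14 otherRNA features past the criterion, 11 are antisense transcripts (78.6%), beside 2310 of all 3732 tested (61.9%), and 1 is sense intronic. Of the 11, 5 lie opposite to an exon of a protein-coding gene, 4 opposite to such a gene outside its exons, and 2 overlap none. Without a stated strand, reads of the transcripts that overlap a gene cannot be told apart from reads of that gene. CR974462.3 (chr17:34120568-34121158) lies opposite to an exon of Brd2, which encodes a bromodomain protein. It also overlaps the gene H2-DMa on the same strand, outside the exons of that gene. CR974462.3 had 20.8 CPM at the lowest, 27.5 at the median and 36.3 at the highest in DEHP libraries, against 36.5, 42.5 and 72.5 CPM in control libraries. The groups did not overlap, which held for 3 of 3732 otherRNA features (0.0804%). The fitted log2 fold change was -0.77 (SE 0.221). A930016O22Rik lies opposite to an exon of Ckm, the muscle creatine kinase gene, and was chosen after its values had been seen. It averaged 35.5 ± 12.7 CPM in DEHP and 126 ± 96.3 CPM in control libraries, with a log2 fold change of -1.79 (SE 0.581), -2.26 on lane 6 and -1.27 on lane 7. Beside it, the muscle miRNA list stood at 6.45 to 34.8 RPM in DEHP and 10.4 to 28.2 RPM in control libraries. Both tested members, miR-143-3p and miR-145a-5p, were higher in DEHP libraries. Without a filter on low counts, 2 of all 5 members were higher and the median log2 fold change was -1.15. The part of muscle RNA in the A930016O22Rik result was not tested.

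Further antisense transcripts were split between directions. Lower in DEHP libraries were Gm45604, opposite to Slc16a7, a monocarboxylate transporter gene, outside its exons (log2 fold change -1.37, SE 0.401), and Gm13012, opposite to the endothelin-converting enzyme gene Ece1 outside its exons (-0.98, SE 0.304). Higher were Gm15199 (0.80, SE 0.242) and Gm16567, opposite to an exon of the complement gene C1s1 (0.74, SE 0.237).

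Small nucleolar RNAs guide the modification of rRNA, C/D box members directing methylation and H/ACA box members pseudouridylation. Of 56 tested C/D box entries, 20 were higher in DEHP libraries and 0 had an unadjusted p under 0.05 (median log2 fold change -0.07), while on lane 7 alone 33 of 61 were higher. Without control replicate 2, 41 of 56 were higher, and the median ran from -0.25 without control replicate 4 to 0.145 without DEHP replicate 4. Of 31 tested H/ACA box entries, 12 were higher and 2 (beside 2.73% of all otherRNA features) had an unadjusted p under 0.05 (median -0.04), while with library totals 17 of 31 were higher and with libraries 1 to 4 alone 18 of 28. Without control replicate 6 it was 21 of 31 (median 0.15), and without DEHP replicate 4 it was 19 of 31. The H/ACA box RNA Snora41, within an intron of the elongation factor gene Eef1b2, met the criterion at 54.4 ± 24.025 CPM in DEHP and 28.9 ± 9.73 CPM in control libraries (log2 fold change 0.89, SE 0.315). The most read members stayed near 0, with Snord118, the U8 RNA, at 0.16 (interval -0.37 to 0.69), Snord15b at -0.03 (interval -0.46 to 0.40), Snora73a at 0.10 (interval -0.68 to 0.89) and Snora73b at -0.13 (interval -1.14 to 0.88).

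RNAs of splicing, RNA processing and protein targeting had intervals that include 0. Of 6 tested spliceosomal snRNAs, 4 were higher in DEHP libraries (2 on lane 7 alone, 3 to 6 with each library left out in turn) and 0 had an unadjusted p under 0.05, and the U1 copies Rnu1b6 and Rnu1b1 had log2 fold changes of -0.20 (interval -1.08 to 0.68) and 0.07 (interval -0.90 to 1.04). Rn7s1 and Rn7s2, near-identical copies of the 7SL RNA of the signal recognition particle, took 7.08% and 7.69% of otherRNA reads in DEHP and 7.00% and 7.61% in control libraries, each with a log2 fold change of -0.06 (intervals -0.56 to 0.43 and -0.55 to 0.43). For Rmrp, the RNA of RNase MRP, it was 0.07 (interval -0.71 to 0.85), and for Rpph1, the RNA of RNase P, -0.02 (interval -0.45 to 0.42). The most read otherRNA feature, the antisense transcript 0610038B21Rik, took 10.2% in DEHP and 9.11% in control libraries and had a log2 fold change of 0.13 (interval -0.88 to 1.14). Among lncRNA hosts of snoRNAs, 29 of 101 entries were tested and 16 were higher. The 1 with an unadjusted p under 0.05 was a Gas5 transcript (-1.14, SE 0.508). That count stands beside 2.73% of all otherRNA features and 3.39% of all lncRNAs.

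The other 12 libraries hold a second comparison in which DEHP was added, the mixture against DBP alone, and it shares no library with DEHP against control, though DBP was present in both its groups. The features that met the criterion did not share a common direction in it. Of the 29 in the 6 classes, 12 had the same sign in the mixture minus DBP comparison (41.4%), beside 3450 of all 7454 features (46.3%). For the 14 in otherRNA it was 7 (50.0%), beside 1826 of 3732 (48.9%). The median absolute log2 fold change of the 29 was 0.91 in DEHP minus control, and in the same direction their median was -0.03 in the mixture minus DBP. By class, 2 of 8 piRNAs, 7 of 15 circRNAs and 3 of 6 lncRNAs had the same sign. In the mixture minus DBP comparison edgeR called 0 features, and it called 0 for the difference between both comparisons.

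Single values in that second comparison went both ways, and they are given without their SE. Of the 29 features, 2 with the same sign and 2 with the opposite sign had an unadjusted edgeR p under 0.05 in it. Over all 7454 features these counts were 131 and 153. Of the 14 in otherRNA it was 1 and 1, beside 75 and 125 of 3732. The features so counted are named first. The circRNA of Zfp536 was higher in both, with log2 fold changes of 0.88 for DEHP minus control and 0.81 for the mixture minus DBP, and that of Zfp207 was lower in both, with -0.67 and -0.45. A930016O22Rik was also lower in both, with -1.79 and -1.42. The circRNA of Dennd2a, at 1.15 for DEHP minus control, stood at -0.90 for the mixture minus DBP. Gm15907 likewise had opposite signs, at 0.75 and -0.58, as did CR974462.3, at -0.77 and 0.49. For Gm22073 the mixture minus DBP value was -0.66, for piR-mmu-23561793 -0.10 and for 4930570E03Rik 0.04.

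**Figure D5:**
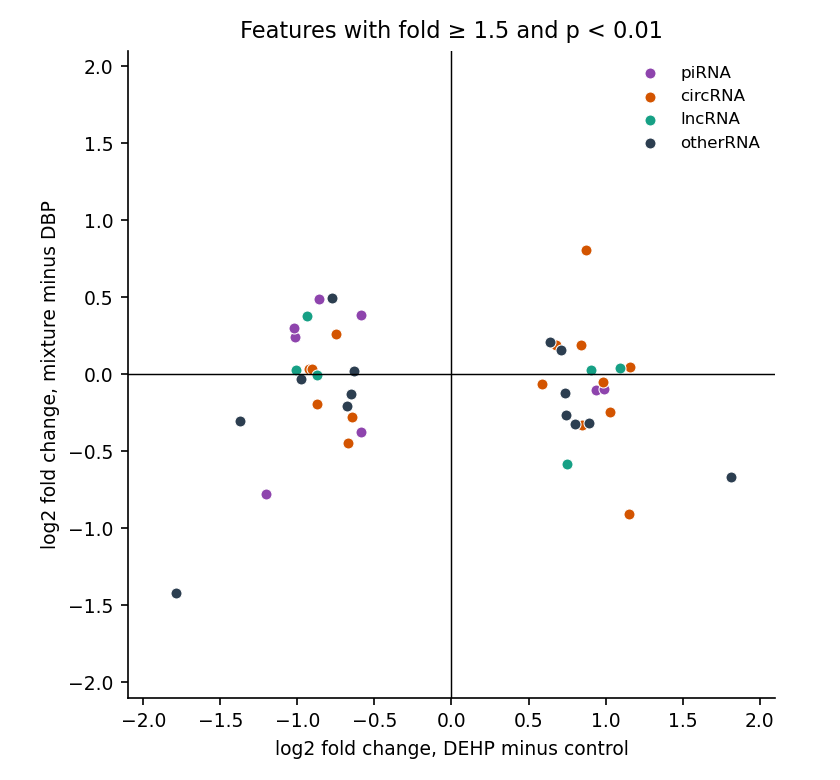
Log2 fold change of the mixture minus DBP (other 12 libraries) against that of DEHP minus control for the features past the fold and p criterion (29 in the 6 classes and 14 in otherRNA), coloured by class. Points in the lower left and upper right have the same sign in both, 12 of 29 in the 6 classes and 7 of 14 in otherRNA.

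The width of the intervals sets what these libraries could show. Over the 6 classes the median SE of a log2 fold change was 0.297, and the 95% interval of 5308 of 7454 features (71.2%) lay inside a 2-fold change in either direction, while that of 1559 (20.9%) lay inside 1.5-fold. In otherRNA 3062 of 3732 intervals (82.05%) lay inside 2-fold and 1149 (30.8%) inside 1.5-fold. By class, 64.6% of miRNA, 77.1% of tRNA, 58.0% of piRNA, 57.7% of rRNA, 80.1% of circRNA and 67.6% of lncRNA intervals lay inside 2-fold. The intervals of the remaining features reached past 2-fold in at least 1 direction.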

How the data were processed

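Small RNA of cauda epididymal vesicles was sequenced in 24 libraries, 6 per group. Per the submitters' processing notes, reads were trimmed with cutadapt and aligned with STAR 2.7.6a. The 7 class tables hold counts as deposited by the authors, 1 whole number per reference sequence, and were used unchanged. Per the labels, reads were assigned in the order miRNA, tRNA fragments, piRNA, rRNA, circRNA and lncRNA, so a read that matches several classes counts in the first. The otherRNA table is outside that order and was fitted apart. The genome build, the counting strand, the treatment of reads with several matches and whether the authors' p in edgeR was adjusted are not stated in these sources. Transcript identifiers were matched to GENCODE M21 (99.2% of rRNA, 96.1% of lncRNA and 98.0% of otherRNA references). The row that names no feature held 0 reads. Of the spliceosomal list, U3, U7 and Rnu73b entries were left out.

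Features kept by filterByExpr were tested with edgeR 4.0.16 in R 4.3.3 (quasi-likelihood, two-sided, TMM, 1 term per group and 1 for lane) over all 24 libraries, with Benjamini-Hochberg adjustment over 7454 and 3732 features and a threshold of 0.05. The biological coefficient of variation was 34.6% and 28.6%. Class shares and sums by isotype, anticodon and biotype were compared by exact two-sided permutation within lane (400 arrangements, smallest p 0.005, or 0.1 within a lane), with 95% intervals from inverting the test, using Python 3.11.15, numpy 2.4.6, pandas 2.3.3 and scipy 1.17.1. Sums needed at least 10 reads in every library. Intervals of single features are 95% intervals from the fold change and its SE. Counts were also simulated with the real means, the same spread for every feature and no lane difference. That spread was also the same for otherRNA, near the 34.6% of the 6 classes and above the 28.6% of otherRNA. On them the test at adjusted p under 0.05 recovered 25% of 100 2-fold and 90% of 100 4-fold changes among 7147 features of the 6 classes. Among 3608 of otherRNA it recovered 32% and 94%. In the real libraries the spread differs between features, so these rates need not hold there. Correlations and components used log2 CPM with a prior count of 2. References of at most 30 bases counted as mature miRNAs.

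The groups, lists and features were chosen with earlier results of these data known. Named features were, per class and direction, up to 3 with the smallest p that were past 1.5-fold with p under 0.01 (or the 1 with the smallest p), the 3 most read of each class, and the 2 most read tested members of each list. Alternatives were DESeq2 1.42.0, library totals, no filter, scaling of each class on its own, other terms and libraries, single lanes and leaving out each library in turn.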

Additional observations from a re-analysis of the deposited data

Results flagged for a closer look

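In 12 of 198 groups of 6 libraries (6.06%), the highest or lowest library stood apart from the other 5 by Dixon's criterion at the 95% level, and chance alone flags about 5%. Control replicate 2 gave 4 of them. It had 22.1 CPM of miR-145a-5p (group median 8.41), 12890 CPM of mir-1928 (5704), 31.3 CPM of Gm15199 (18.4) and 9228 RPM of cysteine tRNA (3544). DEHP replicate 1 gave 3, with 326 CPM of tRNA-Gln-TTG-3-1 (group median 180), 9886 CPM of tRNA-Gly-CCC-1-2 (5724) and 1.27 CPM of Gm1627 (0.670). DEHP replicate 3 had 0.584 CPM of the circRNA of Zfp536 (group median 1.40) and 4.84 CPM of that of Gm15492 (2.67). Control replicate 5 had 706 CPM of Rnu1b6 (205), control replicate 6 had 3639 CPM of Snora73b (489), and control replicate 4 had 41270 RPM of valine tRNA (23400). The cause of these values was not tested.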

How the results depend on the processing

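In the 6 classes, adjusted calls were 0 in edgeR and DESeq2 except without a filter on low counts, where 6 of 60115 were called, all piRNAs lower in DEHP libraries. The 29 features past the fold and p criterion became 19 with library totals, 373 without a filter, 15 with DEHP and control libraries only, and 22 to 62 with each library left out in turn (62 without control replicate 4). In otherRNA adjusted calls were 0 except for Gm22073 without a filter (adjusted p = 0.0268, log2 fold change 1.79). Its adjusted p ran from there to about 1.00 over the alternatives. The 14 past the criterion became 46 without a filter, 8 with DEHP and control libraries only, 5 on lane 7 only, and 15 to 27 with each library left out (27 without control replicate 4, 23 without DEHP replicate 6). The rRNA share difference of -0.803 points was -0.0325 without the most read feature of each class, -1.42 on lane 6 and -0.188 on lane 7. Causes were not tested beyond the construction of each alternative.

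Libraries of the same replicate number were not treated as pairs, because the labels name no animal, litter or day that they share and the correlation of their deviations was -0.03 for number 1. For the other 5 numbers it ran from 0.12 to 0.64, and 3 of 6 DEHP libraries (numbers 4, 5 and 6) were most alike to the control library of their own number, a hint from the data and not from the design. With the replicate number as a block, 32 features of the 6 classes and 17 of otherRNA met the criterion and adjusted calls were 0 in both. Exact p under 0.05 was then reached by 2 isotypes in place of 4, by 5 anticodons in place of 10 and by 1 biotype in place of 0, with a smallest adjusted p of 0.229, 0.25 and 0.562. That biotype was the entries with no match in GENCODE M21 (exact permutation p = 0.0312, the smallest that 6 pairs can give, lower in DEHP in 6 of 6). The exact p of the rRNA share was 0.0938. Of the named features, 1 of 95 changed sign with DESeq2, 8 of 95 with library totals, 17 of 88 on lane 6 alone, and 2 (without DEHP replicate 6) to 14 (without DEHP replicate 4) of 95 with each library left out. Depth limits features near 1 CPM most, where a library holds about 10 reads.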
